A study of Homo sapiens with 10 samples.

Results

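The core autophagy genes described here are ULK1, ULK2, BECN1, UVRAG, WIPI1, ATG4A, ATG7, ATG10, MAP1LC3B and GABARAPL1, selected by gene symbol. All 10 are listed in both expression tables of the series, which together hold 13358 genes, 11258 of them in both tables. The cells were BJ, a line of human skin fibroblasts immortalised with the telomerase gene hTERT and kept in medium with serum. A control library was compared with libraries of cells treated with nutlin-3a for 2, 4, 6 or 19 h. Nutlin-3a is a small molecule that keeps MDM2 from binding p53, so that p53 accumulates. Each condition was profiled by RNA-Seq of poly(A) RNA and by Ribo-Seq, in which the mRNA fragments covered by ribosomes are sequenced, giving 10 libraries. Every group was 1 library of 1 cell line, so none of the differences has a replicate check and no test between conditions was possible.

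Autophagy encloses cytoplasm in a double membrane, the autophagosome, which then fuses with the lysosome so that its content is degraded. It starts with the ULK kinase complex, which mTOR inhibits in fed cells and AMPK activates on energy stress. A lipid kinase complex built around BECN1 then marks the growing membrane with PI3P, and WIPI proteins bind that lipid. Ubiquitin-like proteins of the ATG8 family (the LC3 and GABARAP proteins) are attached to the membrane by a chain of enzymes that includes ATG7 and ATG10, after ATG4 proteases have trimmed them. p53 is known to act on autophagy both through target genes that restrain mTOR and through autophagy genes themselves.

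Levels are given as FPKM, fragment numbers divided by transcript length and by library size. The fragment numbers behind the values, called reads here, were worked out from the steps between them. They give a counting standard error (SE), which covers counting alone and neither PCR copies nor differences between cultures. The libraries held 23845559 to 27554287 reads in RNA-Seq and 7744900 (19 h) to 14460726 (4 h) reads in Ribo-Seq. Ribosome density is the Ribo-Seq FPKM, and translational efficiency (TE) is the log2 ratio of the Ribo-Seq to the RNA-Seq value. Both are names for these values, and how far the values reflect translating ribosomes alone was not tested. Changes are log2 ratios to the control of the same assay with values under 1 FPKM set to 1, and a change is called when it reached 1.5-fold. Tested genes, 7015 in all, reached 5 FPKM in 1 or more RNA-Seq libraries and in 1 or more Ribo-Seq libraries. That set held 6 of the 10 members, ULK1, BECN1, WIPI1, ATG7, MAP1LC3B and GABARAPL1. ULK1 passed on the Ribo-Seq side through its treated libraries alone, as its control value was 4.63 FPKM. UVRAG and ATG4A passed on RNA alone, and ULK2 and ATG10 in neither assay.

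The labels matched the cells and the treatment. RNA of the fibroblast markers COL1A1, COL1A2, COL3A1, VIM, THY1 and PDGFRB lay between 55.5 and 4194 FPKM in the control. Of the epithelial, endothelial and immune markers only CDH1, PTPRC and CD14 were listed, at no more than 0.509 FPKM in any RNA-Seq library. RNA of CDKN1A, the p53-induced inhibitor of cyclin-dependent kinases, stood at 68.6 FPKM in the control and at 212, 915, 1204 and 1316 FPKM at 2, 4, 6 and 19 h. MDM2, which encodes the ligase that degrades p53, went from 14.9 FPKM to 36.3, 203, 254 and 259 FPKM.

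RNA of 3 of the 6 tested members was called higher at 19 h, and none was called lower at any time. They were ULK1, WIPI1 and GABARAPL1. No tested member was called in RNA at 2 h, where 2.08% of all tested genes were higher and 0.214% lower. At 4 h ULK1 was higher, against 3.51% of tested genes higher and 3.58% lower. At 6 h WIPI1 was higher, against 5.74% and 11.6%. At 19 h the 3 higher members stood against 7.13% of tested genes higher and 14.6% lower. The median RNA change of the 6 tested members was 0.13, 0.10, 0.23 and 0.44 at 2, 4, 6 and 19 h, beside -0.045, -0.074, -0.0024 and -0.067 for all tested genes. Over all 10 members the median was 0.093, 0.047, 0.23 and 0.23. ULK1 passed the filter on the Ribo-Seq side only through treated libraries. Its RNA calls and its part in the medians of the 6 are therefore not independent of the filter. They cannot be weighed against the shares. As the libraries are bulk samples, a change in the share of cells with a transcript and a change in its amount per cell cannot be told apart.

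In ribosome density, ULK1 and WIPI1 rose and MAP1LC3B fell. MAP1LC3B was lower at 2 h, when 6.96% of tested genes were higher and 2.72% lower. ULK1 was higher at 4 h, against 10.4% higher and 3.26% lower. ULK1 and WIPI1 were higher at 6 h, against 15.0% higher and 19.0% lower. At 19 h ULK1 and WIPI1 were higher and MAP1LC3B was lower, against 15.0% of tested genes higher and 29.8% lower. The median density change of the 6 members was -0.012, 0.27, 0.37 and 0.21, beside 0.016, 0.10, -0.020 and -0.19 for all tested genes. ULK1 is in the tested set only through its treated Ribo-Seq libraries. Its density calls and its part in these medians are therefore not independent of the filter, and they cannot be weighed against the shares.

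In TE the tested members gave 2 calls. At 2 h no member was called, against 5.39% of tested genes higher and 1.78% lower, and at 4 h none, against 9.24% and 0.713%. At 6 h ULK1 was higher, against 13.3% higher and 12.3% lower. At 19 h MAP1LC3B was lower, against 9.00% higher and 15.6% lower. The median TE change of the 6 members was -0.057, 0.12, 0.043 and -0.11, beside 0.045, 0.18, 0.0021 and -0.067 for all tested genes. The limit set by the filter holds for the TE call of ULK1 as well.

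**Figure D1:**
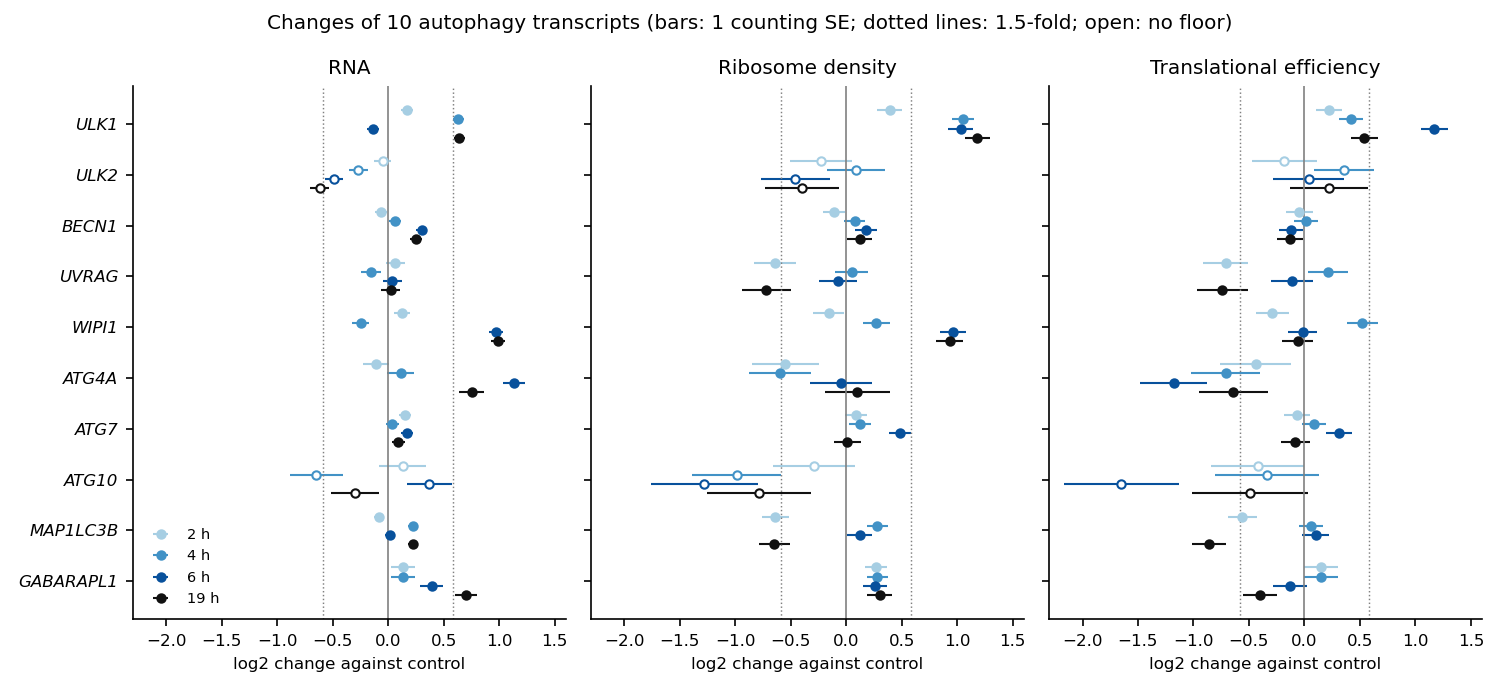
The log2 change against the control of RNA, ribosome density and TE is drawn for each of the 10 genes, with 1 point per time, bars of 1 counting SE and dotted lines at 1.5-fold. Open points (ULK2 and ATG10) were computed without the floor of 1 FPKM. Among tested members, ULK1 lies right of the line in density at 4, 6 and 19 h and WIPI1 at 6 and 19 h. MAP1LC3B lies left of it in density at 2 and 19 h. Outside the filter, UVRAG lies left of it in density at 2 and 19 h, ATG4A at 4 h and ATG10 at 4, 6 and 19 h.

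The start regions are shown for the 4 members whose RNA stood at least 1.5-fold above the control at 19 h (ULK1, WIPI1, ATG4A and GABARAPL1). ATG4A was outside the filter. ULK2, also outside it, was past 1.5-fold lower in RNA at 19 h and is not shown. Each window runs from 250 bases before to 50 bases after the RefSeq start of the gene, in the direction of transcription, with coordinates of GRCh38.p14. Capitals mark the match found to the motifs searched.
ULK1 (chr12:131894372-131894671, plus strand): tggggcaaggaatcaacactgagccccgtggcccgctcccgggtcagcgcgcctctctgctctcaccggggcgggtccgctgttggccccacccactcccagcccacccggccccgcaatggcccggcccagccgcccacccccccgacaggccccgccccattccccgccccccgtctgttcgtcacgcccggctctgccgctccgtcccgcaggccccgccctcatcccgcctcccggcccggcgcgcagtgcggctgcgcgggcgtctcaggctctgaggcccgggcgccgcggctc
WIPI1 (chr17:68457447-68457746, minus strand): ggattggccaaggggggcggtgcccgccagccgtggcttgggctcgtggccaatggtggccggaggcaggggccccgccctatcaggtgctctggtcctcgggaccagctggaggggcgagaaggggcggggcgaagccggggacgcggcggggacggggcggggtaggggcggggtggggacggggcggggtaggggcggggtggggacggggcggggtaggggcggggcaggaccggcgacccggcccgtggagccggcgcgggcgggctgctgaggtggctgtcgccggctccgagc
ATG4A (chrX:108091528-108091827, plus strand): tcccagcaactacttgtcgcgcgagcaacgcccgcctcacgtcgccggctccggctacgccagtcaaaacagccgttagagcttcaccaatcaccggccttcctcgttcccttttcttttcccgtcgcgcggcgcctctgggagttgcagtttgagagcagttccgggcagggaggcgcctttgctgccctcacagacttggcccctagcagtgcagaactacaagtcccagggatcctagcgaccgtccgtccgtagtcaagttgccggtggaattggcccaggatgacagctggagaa
GABARAPL1 (chr12:10212627-10212926, plus strand): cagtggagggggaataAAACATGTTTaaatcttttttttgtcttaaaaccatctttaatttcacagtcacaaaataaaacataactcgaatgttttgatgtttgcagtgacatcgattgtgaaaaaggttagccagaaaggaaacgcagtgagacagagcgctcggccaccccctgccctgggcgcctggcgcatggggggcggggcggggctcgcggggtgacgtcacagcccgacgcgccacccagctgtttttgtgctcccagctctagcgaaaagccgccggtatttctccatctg

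Windows were found for 9 of the 10 members, all but UVRAG. Both strands were searched for the E-box CACGTG, which TFEB and related factors bind, for the FOXO motif GTAAACA, and for the p53 half-site. The E-box was in none of the 9 windows and in 7.26% of 35116 RefSeq windows of the same length. The FOXO motif was in none of the 9 and in 3.42% of all windows. The p53 half-site was in 1 of the 9, that of GABARAPL1, as AAACATGTTT beginning 234 bases before the start, and in 6.63% of all windows. A match of this kind is a match of letters and not a measured site. The windows differed widely in base composition, from 51.7% G and C in GABARAPL1 to 79.7% in WIPI1 and 78.3% in ULK1, against a median of 58.7% over all windows. CpG pairs numbered 36 in ULK1, 34 in WIPI1, 25 in ATG4A and 18 in GABARAPL1, against a median of 14.

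Among the initiating kinases, ULK1 rose and its paralog ULK2 did not. ULK1 (ENSG00000177169) encodes the kinase that phosphorylates the BECN1 complex and other autophagy proteins. Its RNA was 11.0 FPKM in the control and 12.4, 17.1, 10.0 and 17.2 FPKM at 2, 4, 6 and 19 h. Its ribosome density was 4.63, 6.07, 9.58, 9.45 and 10.5 FPKM in the same order. The RNA was thus high at 4 and 19 h and back near the control at 6 h, whereas density was high in all 3 libraries from 4 h on. On the log2 scale its RNA rose by 0.63 ± 0.049 (counting SE) at 4 h and by 0.64 ± 0.049 at 19 h, only about 1 counting SE past the 1.5-fold line, and at 6 h its change was -0.14 ± 0.054. Against the 2 h library both RNA changes were 0.47 and no longer called. Density rose by 1.05 ± 0.10, 1.03 ± 0.11 and 1.18 ± 0.11 at 4, 6 and 19 h, or 2.07-, 2.04- and 2.26-fold. Against the 2 h library these density changes were 0.66, 0.64 and 0.79, each still called.

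The 6 h library set ULK1 apart in TE. From 4 to 6 h its RNA changed by -0.77 ± 0.049 and from 6 to 19 h by 0.78 ± 0.048, while density changed by -0.019 ± 0.083 and 0.15 ± 0.095. The ratio of Ribo-Seq to RNA-Seq FPKM was 0.420 in the control and 0.490, 0.560, 0.944 and 0.610 at 2, 4, 6 and 19 h. TE was therefore called at 6 h alone (1.17 ± 0.12), and the 19 h value of 0.54 ± 0.12 stayed short of 1.5-fold. With each library centred on the median of the tested genes the 19 h value was 0.60 and passed it. ULK1 is a long transcript, with a recovered length of 5293 nt against a median of 2592 nt over tested genes. Across 6969 tested genes density at 19 h rose by 0.15 and TE at 6 h by 0.16 (log2) for each doubling of length. With the length trend of each measure and time subtracted, ULK1 had a density change of 1.02 at 19 h and a TE change of 1.01 at 6 h. Its TE change at 19 h was then 0.39, short of 1.5-fold.

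ULK2 (ENSG00000083290), which can stand in for ULK1 in many cells, was a weakly expressed transcript. Its RNA was 4.64, 4.48, 3.84, 3.30 and 3.01 FPKM in the control and at 2, 4, 6 and 19 h. Its Ribo-Seq value was 0.820, 0.697, 0.869, 0.598 and 0.622 FPKM, from 56, 48, 73, 35 and 28 reads. RNA was lower in each later library, and its change at 19 h was -0.62 ± 0.088, past 1.5-fold but outside the filter. The ratio of Ribo-Seq to RNA-Seq stayed between 0.156 and 0.226, the lowest among the members in the control. Without the floor the density change was -0.40 ± 0.33 and the TE change 0.22 ± 0.35 at 19 h. The 2 ULK paralogs thus moved apart in RNA at 19 h, to 17.2 FPKM against 3.01 FPKM, from 11.0 against 4.64 FPKM in the control.

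**Figure D2:**
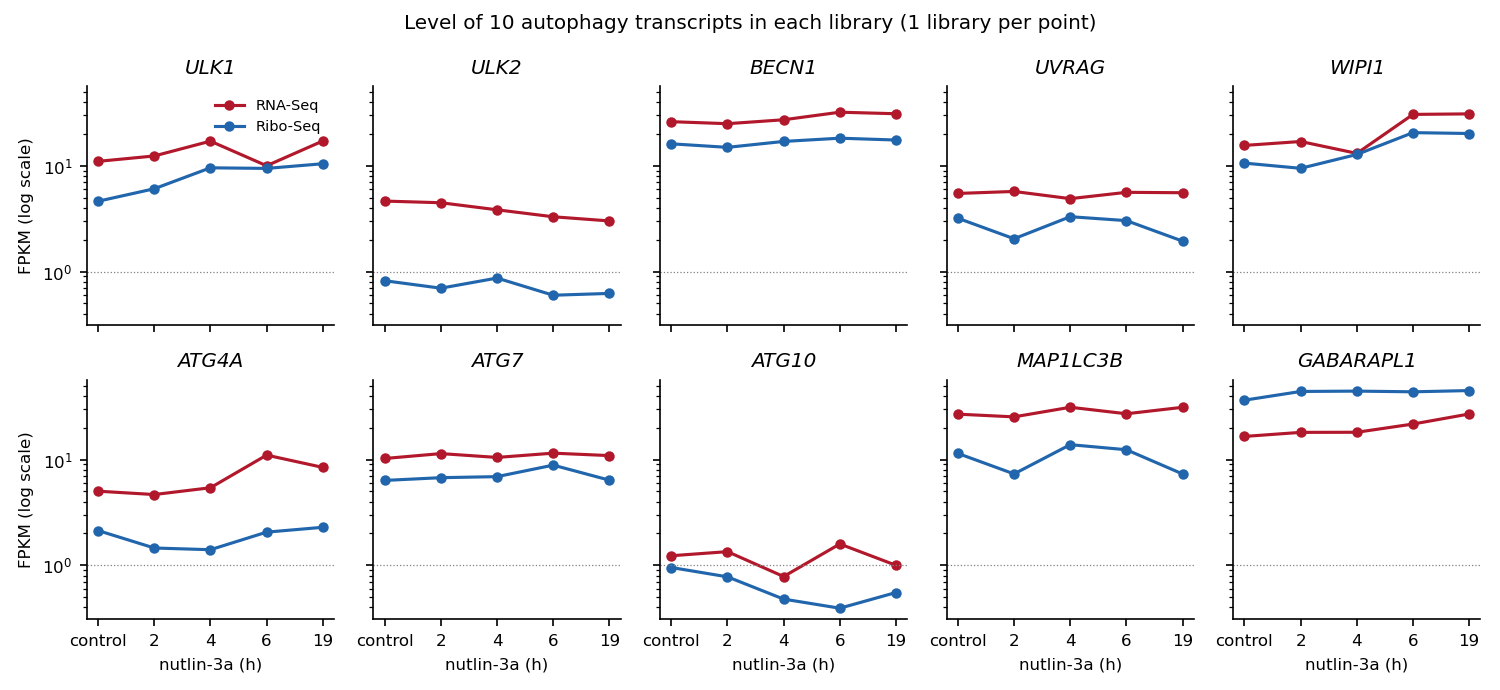
FPKM of each of the 10 transcripts on a log axis, in RNA-Seq (red) and Ribo-Seq (blue), for the control and the 4 treatment times, with 1 library per point and a dotted line at 1 FPKM. GABARAPL1 is the only member whose Ribo-Seq value exceeds its RNA-Seq value, and ULK2 and ATG10 lie under 1 FPKM in every Ribo-Seq library.

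The genes of the lipid kinase complex moved little in RNA. BECN1 (ENSG00000126581) encodes its scaffold, which BCL2 proteins bind and hold back. BECN1 RNA was 26.1, 25.02, 27.3, 32.1 and 31.1 FPKM, and its density 16.1, 14.95, 17.0, 18.3 and 17.5 FPKM. Both were a little higher at 6 and 19 h than before. None of the changes was called, the largest being 0.30 ± 0.052 in RNA at 6 h, and TE stayed within 0.13 of the control at every time.

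UVRAG (ENSG00000198382) encodes a BECN1 partner that acts in autophagosome maturation and endosome traffic. UVRAG RNA was 5.48, 5.72, 4.89, 5.62 and 5.57 FPKM, with changes between -0.16 and 0.062. Its Ribo-Seq value was 3.20, 2.05, 3.30, 3.03 and 1.94 FPKM, from 155, 100, 197, 126 and 62 reads. Density was low in the 2 h and 19 h libraries and close to the control in those of 4 and 6 h. The density changes at 2 and 19 h were -0.64 ± 0.19 and -0.72 ± 0.22 and those of TE -0.71 ± 0.20 and -0.74 ± 0.23, all past 1.5-fold and all outside the filter. Against the 2 h library the 19 h changes were -0.075 in density and -0.035 in TE.

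WIPI1 had the largest RNA rise of the tested members. WIPI1 (ENSG00000070540) encodes a PI3P-binding protein whose puncta mark forming autophagosomes. Its RNA was 15.6, 17.0, 13.1, 30.6 and 31.0 FPKM. Its density was 10.6, 9.47, 12.8, 20.6 and 20.2 FPKM. In both assays the libraries of 6 and 19 h were the high ones, well above the other 3. RNA rose by 0.97 ± 0.065 at 6 h and 0.99 ± 0.065 at 19 h, or 1.96- and 1.99-fold, and density by 0.96 ± 0.12 and 0.93 ± 0.12. The step fell between 4 and 6 h, where RNA rose 2.34-fold and density 1.61-fold, and from 6 to 19 h RNA changed by 0.017 ± 0.051. TE at 6 and 19 h was -0.017 ± 0.13 and -0.061 ± 0.14. At 4 h, with RNA at its lowest and density not, TE was 0.52 ± 0.14, short of a call, when the median of all tested genes was also up by 0.18.

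Of the 3 conjugation genes ATG4A moved in RNA, ATG7 did not, and ATG10 was close to the limit of detection. ATG4A (ENSG00000101844) encodes a protease of ATG8 proteins with a preference for the GABARAP branch. Its RNA was 5.02, 4.67, 5.41, 11.0 and 8.42 FPKM. Its Ribo-Seq value was 2.13, 1.46, 1.404, 2.06 and 2.29 FPKM, from 58, 40, 47, 48 and 41 reads. RNA was high at 6 and 19 h as for WIPI1, and density in these libraries was level with the control. The RNA changes were 1.13 ± 0.10 at 6 h and 0.75 ± 0.11 at 19 h, or 2.19- and 1.68-fold, and RNA doubled between 4 and 6 h (2.03-fold). Among the 8409 genes with at least 5 FPKM in an RNA-Seq library, which include ATG4A, 6.37% were at least 1.5-fold higher at 6 h and 7.49% at 19 h.

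Density of ATG4A changed by -0.60 ± 0.28 at 4 h, -0.050 ± 0.28 at 6 h and 0.10 ± 0.29 at 19 h. Its ratio of Ribo-Seq to RNA-Seq went from 0.424 in the control to 0.312, 0.260, 0.187 and 0.271. TE was accordingly -0.71 ± 0.31, -1.18 ± 0.30 and -0.64 ± 0.31 at 4, 6 and 19 h. At these read numbers only the 6 h value lay more than 3 counting SE below 0.

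ATG7 (ENSG00000197548) encodes the enzyme that activates both ATG8 proteins and ATG12. ATG7 RNA was 10.2, 11.4, 10.5, 11.5 and 10.9 FPKM and its density 6.34, 6.73, 6.89, 8.85 and 6.38 FPKM. The RNA values lay within 0.17 (log2) of the control at every time. Density at 6 h was the high library (0.48 ± 0.10), short of 1.5-fold, and at 19 h density stood at 0.0082 ± 0.12.

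ATG10 (ENSG00000152348), which encodes the enzyme that joins ATG12 to ATG5, was the lowest member in RNA. Its RNA was 1.23, 1.35, 0.783, 1.59 and 1.00 FPKM from 58 to 133 reads, and its Ribo-Seq value 0.953, 0.778, 0.479, 0.393 and 0.553 FPKM from 34, 28, 21, 12 and 13 reads. All Ribo-Seq values of treated cells were below the control. As they lie under the floor, no density change is given by the main measure. Without the floor the changes were -0.29 ± 0.37, -0.99 ± 0.40, -1.28 ± 0.48 and -0.79 ± 0.47, and that of TE at 6 h was -1.65 ± 0.52.

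The ATG8 members differed from each other in direction. MAP1LC3B (ENSG00000140941) encodes LC3B, the ATG8 protein used most as a marker of autophagosomes. Its RNA was 26.8, 25.3, 31.2, 27.1 and 31.2 FPKM. Its density was 11.4, 7.31, 13.8, 12.4 and 7.30 FPKM. RNA stayed within 0.22 of the control, and density was low in the libraries of 2 and 19 h but not in those of 4 and 6 h. Density fell by 0.64 ± 0.12 at 2 h and by 0.65 ± 0.14 at 19 h, each 1.56-fold and within 1 counting SE of the 1.5-fold line. Between those times it climbed by 0.92 ± 0.11 from 2 to 4 h. TE fell by 0.86 ± 0.15 at 19 h and stood at -0.56 ± 0.13 at 2 h. The density call at 19 h was lost with each library centred on the median of the tested genes (-0.45) and with a pseudocount of 1 FPKM (-0.58). Against the 2 h library in place of the control both calls at 19 h were lost (-0.0018 in density and -0.30 in TE). UVRAG had its low densities in the same pair of Ribo-Seq libraries.

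GABARAPL1 (ENSG00000139112) belongs to the GABARAP branch of the family. Its RNA was 16.5, 18.1, 18.1, 21.6 and 26.9 FPKM. Its Ribo-Seq value was 36.4, 43.99, 44.3, 43.7 and 44.9 FPKM. RNA was highest at 19 h, whereas density was level over the 4 treated libraries, all of them above the control. RNA rose by 0.70 ± 0.098 at 19 h, or 1.63-fold, after 0.39 ± 0.10 at 6 h, and against the 2 h library the 19 h value was 0.58, just short of a call. Density changes were between 0.26 and 0.30, and TE went from 0.15 ± 0.15 at 2 h to -0.40 ± 0.15 at 19 h, none of them called. GABARAPL1 is also the shortest member, with a recovered length of 855 nt, and with the length trend subtracted its density change at 19 h was 0.55.

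Both ATG8 members have near-identical copies in the tables, and as reads that hit several transcripts were dropped, their levels are uncertain. MAP1LC3B2 was between 0.523 and 0.689 FPKM in RNA-Seq and was not listed in Ribo-Seq. GABARAPL3 had RNA values of 10.8, 11.7, 11.6, 13.9 and 15.8 FPKM and Ribo-Seq values of 3.03, 1.87, 2.17, 1.98 and 2.23 FPKM. Its RNA, like that of GABARAPL1, was highest at 19 h. How reads were split between the copies was not tested.

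**Figure D3:**
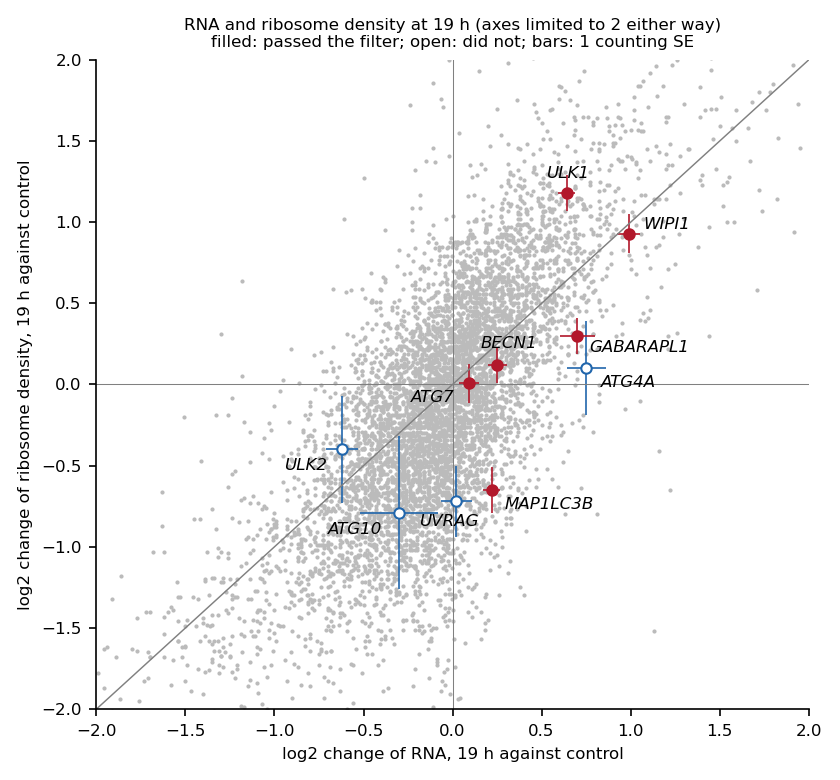
The log2 change of ribosome density at 19 h is plotted against that of RNA for the 7015 tested genes (grey) and the 10 members (filled where they passed the filter, open where not), with bars of 1 counting SE and a diagonal of equal change. ULK1 lies above the diagonal, WIPI1 on it, and GABARAPL1, ATG4A, MAP1LC3B and UVRAG below it.

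The order of levels shifted with WIPI1. In control RNA, MAP1LC3B and BECN1 led and did not differ beyond 2 counting SE. GABARAPL1 and WIPI1 came next and did not differ, then ULK1 and ATG7, which did not differ either, then UVRAG, ATG4A and ULK2 close together, with ATG10 last. At 19 h WIPI1 had joined MAP1LC3B and BECN1, the 3 lying between 31.0 and 31.2 FPKM. GABARAPL1 followed, then ULK1, which by then exceeded ATG7 by 0.66 ± 0.049 (log2). In Ribo-Seq GABARAPL1 was first in every library, by 1.17 ± 0.10 over BECN1 in the control and 1.15 ± 0.12 over WIPI1 at 19 h. ULK1 moved from below ATG7 in the control (4.63 against 6.34 FPKM) to above it at 19 h (10.5 against 6.38 FPKM).

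The ratio of Ribo-Seq to RNA-Seq FPKM ranged widely between members. GABARAPL1 alone exceeded 1, at 2.20 in the control and 2.44, 2.45, 2.02 and 1.66 at 2, 4, 6 and 19 h. BECN1 stayed between 0.564 and 0.624 and ATG7 between 0.586 and 0.771. MAP1LC3B stood at 0.425 in the control and at 0.289, 0.443, 0.457 and 0.234 at 2, 4, 6 and 19 h. The Ribo-Seq FPKM appears to be scaled to the whole transcript, so that a ratio between genes also depends on how much of each transcript is coding. Whether changes over time depend on it too was not tested.

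Tested genes with the smallest distance to a member over its 4 RNA and 4 density changes are given for the 4 members at least 1.5-fold higher in RNA at 19 h. For ULK1 they were TRIM62 (Euclidean distance 0.471), IGF1R (0.581) and TRIM8 (0.582). For WIPI1 they were IFT20 (0.361), HS1BP3 (0.475) and MAPRE3 (0.492), and for GABARAPL1 SHC1 (0.327), PPP2R5A (0.358) and APBA3 (0.382). ATG4A came nearest to HBP1 (0.556), RBMS3 (0.615) and GSTZ1 (0.648). No other member was among these nearest genes, but only tested genes could be listed, so ULK2, UVRAG, ATG4A and ATG10 could not appear. Such short lists do not show whether members share a pattern.

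The rest of the pathway was followed in 78 listed genes, of which 75 were in the tables and 61 tested. RNA was higher in 0, 1, 4 and 3 and lower in 0, 1, 1 and 1 of the 61 at 2, 4, 6 and 19 h. Density was higher in 1, 7, 14 and 15 and lower in 1, 1, 4 and 8. TE was higher in 2, 6, 10 and 3 and lower in 0, 1, 3 and 11. At 19 h the shares of all tested genes were 7.13% higher and 14.6% lower in RNA, 15.0% and 29.8% in density, and 9.00% and 15.6% in TE. At 6 h they were 5.74% higher and 11.6% lower in RNA, 15.0% and 19.0% in density, and 13.3% and 12.3% in TE. Those at 2 and 4 h are given above with the calls of the core members. At 19 h the 3 genes higher in RNA and the 11 lower in TE of 61 were near the background. The median RNA change of the 61 was 0.14 at 19 h and the median TE change 0.016. PIK3R4, ATG2A, ZFYVE1, PLEKHM1, TECPR1 and TFEB had under 5 FPKM in a control library and passed the filter only through treated libraries. Without these 6, density was higher at 19 h in 9 of 55, TE in 1 and RNA in 2. At 6 h, density was then higher in 9 of 55, near the 15.0% of all tested genes, TE in 7 and RNA in 3.

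In the lipid kinase and membrane steps, PIK3R4, the regulatory subunit of the complex that holds BECN1, had a Ribo-Seq value of 2.17 FPKM in the control and 5.16, 2.39, 3.78 and 3.86 FPKM afterwards. Its TE rose by 1.13 ± 0.19 at 19 h with RNA at -0.30 ± 0.064, but it passed the filter on Ribo-Seq only through the 2 h library. NRBF2, a further subunit, had a TE change of -0.82 ± 0.18 at 19 h. ZFYVE1, a PI3P-binding protein of the sites where autophagosomes form, had RNA of 5.97, 5.48, 9.55, 11.6 and 12.9 FPKM, a rise of 1.11 ± 0.080 at 19 h, and its control Ribo-Seq value was 4.77 FPKM. Like WIPI1 it was high at 6 and 19 h in RNA, but its 4 h library was already above the control (0.68 ± 0.085).

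In conjugation and the ATG8 family, RNA was called in none of the tested genes at 19 h, and TE was lower in 1 of 6 conjugation and 3 of 3 ATG8 genes, against 15.6% of all tested genes. ATG12, which ATG7 and ATG10 pass on to ATG5, had Ribo-Seq values of 10.1, 7.01, 6.88, 6.24 and 3.52 FPKM at RNA values of 13.1, 13.4, 13.3, 14.0 and 11.7 FPKM. Its TE fell by 1.36 ± 0.16 at 19 h. TE of all 3 other tested ATG8 genes was lower at 19 h, with changes of -0.71 in MAP1LC3A, -0.72 in GABARAP and -0.61 in GABARAPL2. Their RNA changes were 0.48, 0.55 and 0.36, none called, so that with MAP1LC3B, 4 of the 5 tested ATG8 genes had a called lower TE at 19 h, beside the same 15.6%. GABARAPL1 had -0.40, or -0.17 with the length trend subtracted. MAP1LC3B kept its call with that trend subtracted (-0.87) but lost it against the 2 h library. For MAP1LC3A, GABARAP and GABARAPL2 the length trend was not tested. Their TE changes at 2 h were already -0.19, -0.11 and -0.20. Against the 2 h library only GABARAP of these stays past 1.5-fold at 19 h. The median TE change of all tested genes at 19 h was -0.067, so that with centring GABARAPL2 also falls short of 1.5-fold. The count of 4 is thus given for the main setting alone. GABARAP was far the most abundant, with RNA of 105 FPKM in the control and 154 FPKM at 19 h.

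Among cargo receptors 1 of 11 was higher in RNA at 19 h, near the 7.13% of all tested genes. It was SQSTM1, which encodes p62. Its RNA was 127, 150, 172, 214 and 231 FPKM and its density 135, 181, 231, 260 and 271 FPKM. CALCOCO2, which encodes NDP52, had density values of 31.6, 29.9, 39.9, 26.8 and 15.6 FPKM, and its TE fell by 0.88 ± 0.12 at 19 h. Among 16 fusion and lysosome genes 6 were higher in density at 19 h and none was lower, against 15.0% and 29.8% of all tested genes. PLEKHM1 and TECPR1 passed the filter only through treated libraries, and without them 4 of 14 were higher. In RNA 1 of 16 was higher, near the 7.13% of all tested genes. It was NEU1, a lysosomal sialidase, which went from 14.2 to 27.6 FPKM. TE of TECPR1, a tether of autophagosomes, was higher (0.73 ± 0.18) from a control Ribo-Seq value of 2.71 FPKM, and that of LAMP2, a lysosomal membrane protein, was lower (-0.60 ± 0.078).

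Of 12 tested upstream genes, 1 was lower in RNA at 19 h, against 14.6% of all tested genes. This was RHEB, the GTPase that activates mTOR at the lysosome, with RNA of 54.0, 52.8, 51.8, 32.3 and 27.6 FPKM, a fall of 0.97 ± 0.047. RHEB was low in the same libraries, 6 and 19 h, in which WIPI1 and ATG4A were high. PRKAA1, a catalytic subunit of AMPK, had density values of 32.3, 24.5, 26.1, 20.7 and 13.7 FPKM, and its TE fell by 1.05 ± 0.13 at 19 h. No RNA change of an upstream gene was called higher at 6 or 19 h.

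**Figure D4:**
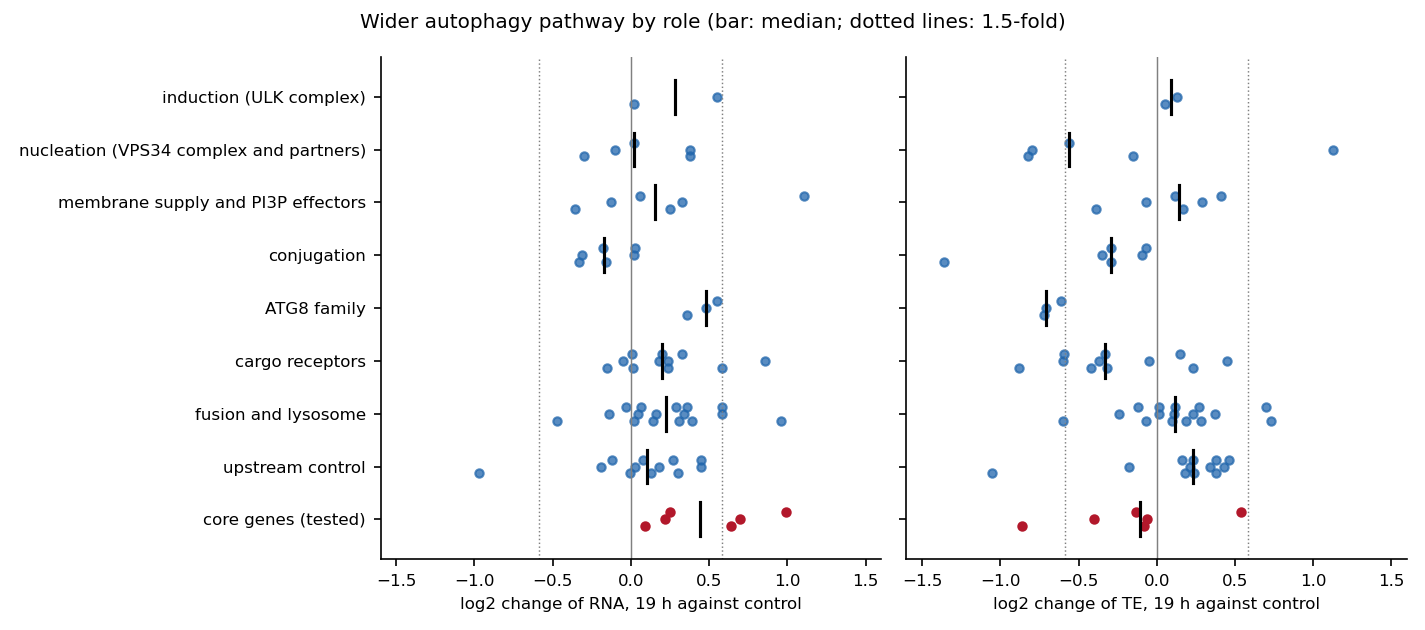
Each point is a tested gene of the wider autophagy pathway (blue, by role) or a tested core gene (red), at its log2 change of RNA (left) and TE (right) at 19 h, with black bars at list medians and dotted lines at 1.5-fold. The 3 ATG8 genes lie left of the lower line in TE, and 3 of the 6 core genes lie right of the upper line in RNA.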

How the data were processed

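RNA-Seq and Ribo-Seq of BJ cells were analysed in 10 libraries, 1 per condition and assay, grouped by the sample labels. The study's methods state that reads were aligned by the authors, using Bowtie, to protein-coding transcripts of Ensembl release 65 (1 isoform per gene) and that unique hits were kept. The labels name the build hg19. The authors deposited FPKM values, with 3 decimals, in a table per assay. The table named for both assays was read as RNA-Seq. The methods describe Ribo-Seq levels from coding reads, but the recovered lengths were the same in both tables, and which reads were counted could not be decided. The study reports fewer Ribo-Seq reads in the main reading frame for its nutlin-3a series than for its other Ribo-Seq libraries. The share of coding reads it reports also differs between control and treated cells. It lists no such shares for the earlier treatment times. Whether the density and TE changes depend on these shares was not tested. The study describes an effect of sequencing run. The labels name no run, so its part was not tested.

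Whole reads, lengths and library totals were worked out from the steps between values for 11180 of 11258 genes (99.3%), after a test on simulated data. After a floor of 1 FPKM, log2 ratios to the control and TE were computed with Python 3.11.15, numpy 2.4.6 and pandas 2.3.3. Tested genes reached 5 FPKM in 1 or more libraries of both assays, and calls needed 1.5-fold. Counting SE came from recovered reads and entered no test. No test was run, as each group was 1 library. The named genes were the 10 members, the called pathway genes with the largest rise and fall of RNA and of TE at 19 h per role, CDKN1A, MDM2 and the 3 genes nearest to each member with an RNA change at 19 h, of which those for ULK2 are not reported here. Other ATG8 genes, near-identical copies and the pathway genes that passed the filter only through treated libraries were added after their values were seen. Members and lists were chosen with earlier results of these data known. Alternatives were a floor of 5 FPKM, a pseudocount of 1 FPKM, no filter, the 2 h baseline, centring, a 2-fold call and, after seeing the data, a filter on RNA alone, a filter on the control libraries for the pathway lists, no floor and removal of the length trend. Promoter windows came from RefSeq (GRCh38.p14).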

Additional observations from a re-analysis of the deposited data

How the results depend on the processing

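No called change of a tested member turned its direction under these alternatives. Counts of called members are small, so that a single gene moves them. The share of all genes called is given only for the main setting and for RNA rises under the filter on RNA alone. The other counts here have no background beside them and show only how the member calls depend on the setting. With 2-fold in place of 1.5-fold, called members numbered 0 in RNA at 4, 6 and 19 h, 0 in density at 2 h, 1 in density at 6 h and 1 at 19 h, both ULK1, and 0 in TE at 19 h. Without the filter, which admits the 4 low members, the counts were 2 in RNA at 6 h and 5 at 19 h, 2 in density at 2 h and 2 at 4 h, and 1, 1, 2 and 4 in TE at 2, 4, 6 and 19 h. These counts pool rises and falls. The TE count at 19 h includes ULK2 as higher (0.62), an effect of the floor, as its TE change without the floor was 0.22 ± 0.35. The medians without the filter were 0.23 for RNA at 19 h and 0.15 for density at 6 h. A filter on RNA alone gave 2 in RNA at 6 h, both higher, against 6.37% of all genes under that filter. With the 2 h library as baseline the counts were 0 in RNA at 4 h and 1 at 19 h, 2 in density at 4 h, and 2, 2 and 0 in TE at 4, 6 and 19 h, with a median TE change of 0.32 at 6 h. Centring gave 1 in TE at 2 h (MAP1LC3B) and 2 at 19 h (ULK1 and MAP1LC3B). A pseudocount gave 0 in density at 2 h and 2 at 19 h, where MAP1LC3B fell short of 1.5-fold at both. Of the single-gene changes, 28 of 90 moved by more than their 95% counting interval with the 2 h baseline, 8 of 120 with a floor of 5 FPKM, 3 of 120 without a floor, 2 of 120 with the length trend removed, and none with centring or a pseudocount. The cause was not tested. Depth limits ULK2, ATG10 and ATG4A most, whose Ribo-Seq values rest on 12 to 73 reads. No left-out library and no paired analysis was possible because each group was 1 library.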
